A study of Caenorhabditis elegans with 2 samples.

Results

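The genes described are 7 C. elegans genes named for subunits of Mediator: mdt-6, mdt-9, mdt-15, mdt-17, mdt-19, mdt-22 and mdt-26. For mdt-9 the annotations disagree on whether this gene or an overlapping one encodes the subunit, and the counts take it by its name. The genes are 7 of the 19973 protein-coding genes of the Ensembl release 115 annotation, and they were listed by name, selected on their CTBP-1 promoter peaks, which were already known. How many of them carry a peak, and how strong it is, is therefore a description of these genes and no test was made of it. A promoter summit is the highest point of a thresholded peak that lies between 1000 bp upstream and 250 bp downstream of an annotated transcript 5' end. The data are ChIP-seq peak lists from whole L4 larvae of strain RW12203, 48 hours old, grown from L1 animals that were starved after bleaching. In this strain an insertion of TY1, EGFP and 3xFLAG made with CRISPR tags ctbp-1 at its own locus on X, and chromatin sheared by sonication was precipitated with an antibody against GFP. All samples carry the tag, there are 2 biological replicates in 1 group, and an untagged or otherwise treated group was not analysed here, which leaves no conditions to compare. Whole animals were used, so the tissue in which a site was bound is not recorded.

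Mediator is a large complex that relays the presence of DNA-bound transcription factors to RNA polymerase II at promoters. Its head and middle modules contact the polymerase, its tail module contacts many activators, and a separable kinase module with CDK-8 and cyclin C can block the contact with the polymerase. CTBP-1 is the worm member of the CtBP family, corepressors that resemble NAD-binding dehydrogenases. How CTBP-1 reaches DNA at the sites described here was not tested. In worms MDT-15, the tail subunit homologous to MED15, is known as a coactivator of lipid metabolism genes together with SBP-1 and NHR-49.

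Of the 7 genes, 6 had exactly 1 promoter summit among the thresholded peaks of both replicates together, and mdt-15 had none. Over all 19973 protein-coding genes the share with a promoter summit was 7.12% (1422 genes). Because the 7 genes were listed with these peaks known, nothing is read from the difference between the counts. This series-level list held 2927 peaks, of which 1303 were promoter summits with a median signal of 87.6 in the authors' units. The signal value is the authors' measure of a peak's strength, and it is ranked here only within its own list. The 6 summits ranged from 56.6 at mdt-6 to 231.7 at mdt-19, a 4.09-fold range, with 3 above and 3 below the median of all promoter summits. The read depth behind these values is not given in the sources used here.

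The sequences under 5 of the 6 summits show what kinds of DNA the peaks covered, from AT-rich stretches at the gene start to a GC-rich, repeat-bearing promoter. Each is 151 bases of the RefSeq WBcel235 sequence, read 5' to 3' on the strand of the Mediator gene, with the summit at the middle base. Capitals mark annotated start codons and matches to the short motifs described further on.
mdt-6, chrV:7059521-7059671, minus strand: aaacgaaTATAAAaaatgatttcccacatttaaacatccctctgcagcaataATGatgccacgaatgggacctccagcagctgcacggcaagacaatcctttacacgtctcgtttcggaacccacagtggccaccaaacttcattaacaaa
mdt-17, chrV:20267159-20267309, minus strand: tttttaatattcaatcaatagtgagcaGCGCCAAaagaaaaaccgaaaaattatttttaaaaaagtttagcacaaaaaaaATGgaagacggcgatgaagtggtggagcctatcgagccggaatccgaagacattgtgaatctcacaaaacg
mdt-22, chrII:10301088-10301238, plus strand: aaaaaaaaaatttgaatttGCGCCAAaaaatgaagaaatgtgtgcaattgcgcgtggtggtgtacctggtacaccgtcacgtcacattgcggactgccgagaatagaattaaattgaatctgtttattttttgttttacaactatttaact
mdt-9, chrIV:13386163-13386313, plus strand: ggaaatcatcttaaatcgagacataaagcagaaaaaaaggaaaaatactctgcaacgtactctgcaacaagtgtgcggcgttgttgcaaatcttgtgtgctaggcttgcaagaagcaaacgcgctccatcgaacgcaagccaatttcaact
mdt-26, chrII:5661117-5661267, plus strand: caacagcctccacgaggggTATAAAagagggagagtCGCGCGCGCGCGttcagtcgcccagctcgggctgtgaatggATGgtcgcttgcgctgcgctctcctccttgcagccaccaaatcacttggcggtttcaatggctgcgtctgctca
The capital ATG of mdt-6 lies 23 bp before the summit, and those of mdt-17 and mdt-26 lie 5 bp and 2 bp after it, so these summits sit near the first codon. No annotated start codon of the gene itself lies within the printed stretches of mdt-9 and mdt-22.

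**Figure D1:**
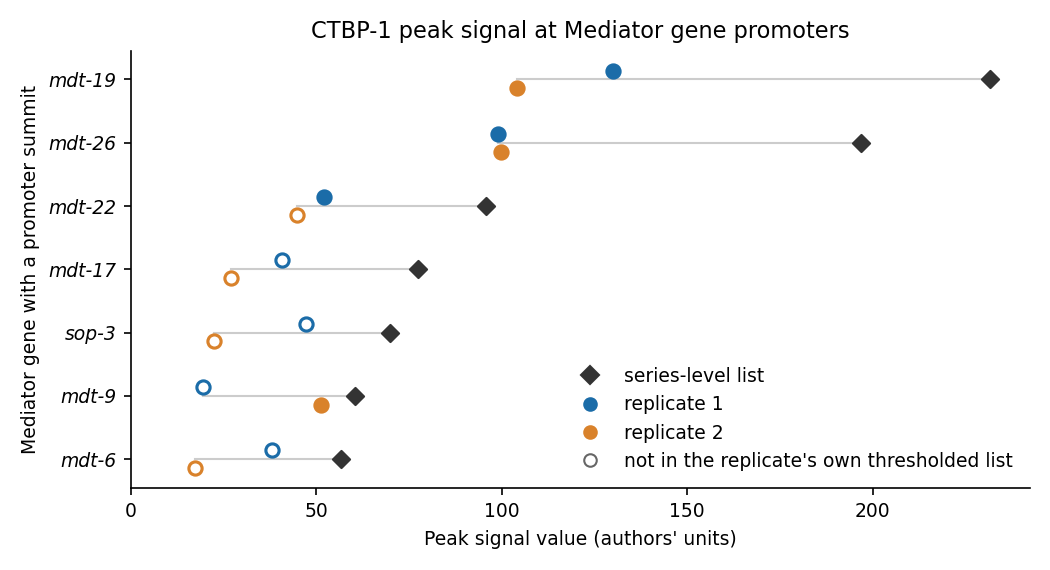
Signal value of the promoter peak (horizontal axis, the authors' units) for the 6 genes with a promoter summit and for sop-3, a further Mediator gene. Diamonds are the series-level list, circles are the replicates, and open circles are replicate peaks outside that replicate's own thresholded list. Only mdt-19 and mdt-26 have both circles filled.

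Of the 6 promoter summits, that of mdt-6 was the weakest. The homologous MED6 is a core head subunit. The mdt-6 gene (WBGene00003164, chromosome V, 7058547 to 7059624, minus strand) had a summit at 7059596, within its coding sequence and 28 bp downstream of its 5' end. The peak spanned 7059414 to 7059777, had a signal of 56.6 and ranked 2612 of 2927. Its global irreproducible discovery rate (IDR) was 0.00965, just inside the threshold of 0.01. The global IDR estimates the share of peaks at that rank or better that fail to repeat between paired lists. Replicate 1 gave 38.0 and replicate 2 gave 17.3, and neither value passed that replicate's own threshold. The replicates thus differed 2.20-fold at mdt-6, and 5.20% of the promoter summits paired in both replicates differed by as much or more. The gene Y57E12AL.6, of unknown function, ends 38 bp upstream on the same strand and had no promoter summit. The summit also fell in the window of Y57E12AL.1, a serine incorporator gene on the opposite strand whose 5' end is 934 bp away.

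The head subunit gene mdt-17 (WBGene00007017, chromosome V, 20250806 to 20267247, minus strand) encodes the homologue of MED17, the scaffold of the head module. Its summit at 20267234, in a peak from 20267052 to 20267415, lay in the 5' UTR, 10 bp downstream of the nearest 5' end, and in the window of no other gene. The signal was 77.5, rank 1766, with a global IDR of 0.00278. Replicate 1 gave 40.7 and replicate 2 gave 27.1, a 1.5-fold difference that 23.0% of paired promoter summits equalled or exceeded. Neither replicate passed alone, although the conservative series-level list held the peak. On the same strand prmt-1, an arginine methyltransferase gene, ends 129 bp upstream and had no promoter summit. The gene downstream, swsn-1, encodes a subunit of the SWI/SNF remodeller, starts 1317 bp beyond mdt-17 and had a promoter summit of its own.

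At mdt-22 (WBGene00007022, chromosome II, 10301216 to 10301888, plus strand), the homologue of the head subunit MED22, the summit at 10301163 lay 53 bp upstream of the 5' end. The whole gene lies inside clpp-1, which encodes the mitochondrial ClpP protease on the opposite strand, and the summit is in a clpp-1 intron. The nearest clpp-1 5' end is 899 bp away and its window does not reach the summit, so mdt-22 alone was assigned the peak. The peak spanned 10300981 to 10301344 with a signal of 95.9, rank 1200 and a global IDR of 0.000795. Replicate 1 gave 52.2 and passed its own threshold. Replicate 2 gave 44.8 at a summit 75 bp away and did not pass. The 1.17-fold difference between replicates was small, since 61.1% of paired promoter summits differed by at least as much. Another thresholded summit, with a signal of 38.8, lay 1634 bp downstream of the mdt-22 summit. It is the promoter summit of clpp-1, 6 bp upstream of a clpp-1 5' end.

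The strongest promoter peak belonged to mdt-19 (WBGene00007019, chromosome III, 2598053 to 2603212, plus strand), the homologue of MED19, a subunit at the contact of Mediator with the polymerase. The peak spanned 2597168 to 2597370, and its summit at 2597275 had a signal of 231.7, rank 143 of 2927, with 66 of the 1303 promoter summits above it. Replicate 1 gave 130.0 and replicate 2 gave 104.0, and both passed their own thresholds. This summit was also the farthest from its gene, 778 bp upstream of the mdt-19 5' end. The divergent gene apb-1, which encodes a beta subunit of clathrin adaptor complexes, starts 241 bp from the summit on the other side. The lists cannot assign the peak to one of these genes rather than the other.

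The gene annotated as mdt-9 (WBGene00014938, chromosome IV, 13386380 to 13387361, plus strand) takes its name from the middle module subunit MED9. The annotations disagree at this locus: RefSeq gives this gene the product guanine nucleotide exchange factor MSS4, and gives the product Mediator complex subunit 9 to the overlapping gene Y62E10A.23. The summit at 13386238 lay 86 bp upstream of Y62E10A.23 and 142 bp upstream of mdt-9, so it is near both candidates for the MED9 gene and nearer to the one that RefSeq names. It also lay 147 bp from the divergent gene Y62E10A.20, which encodes a Tim44-like protein, and 965 bp from lsm-3, a U6 snRNA-associated Sm-like gene. The peak spanned 13386056 to 13386419, with a signal of 60.6, rank 2505 and a global IDR of 0.00300. Replicate 1 gave 19.4 and did not pass, while replicate 2 gave 51.4 and passed. This 2.64-fold difference was the widest among the 6 summits, and 1.94% of paired promoter summits differed by as much or more.

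At mdt-26 (WBGene00016115, chromosome II, 5661181 to 5665243, plus strand) the promoter peak was strong and nearly equal in both replicates. RefSeq describes its product as a protein with a TFIIS N-terminal domain, which is also the domain of mammalian MED26, a subunit that brings elongation factors to the polymerase. The summit at 5661192 lay in the 5' UTR, 11 bp downstream of the 5' end, in a peak from 5661115 to 5661386 with a signal of 197.0 and rank 239. Replicate 1 gave 98.9 and replicate 2 gave 99.7, both past their own thresholds. The divergent gene ift-43, an intraflagellar transport gene, starts 406 bp from the summit and shares it.

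A second and stronger peak lay inside mdt-26, outside the promoter window. Its summit at 5661818, in an intron and 637 bp from the 5' end, had a signal of 443.1, the 13th strongest of the 2911 nuclear peaks. Its peak spanned 5661576 to 5662088, and the replicates gave 201.9 and 219.1, both past their thresholds. The list also holds an overlapping entry from 5661576 to 5662114 with a summit at 5662017 and a signal of 16.4, to which no replicate summit within 100 bp was paired. No promoter window of a protein-coding gene held the intronic summits, and no annotated tRNA, snoRNA or snRNA gene lay within 200 bp of them. The 151 bases around the stronger intronic summit are shown because this was the strongest peak at any of the 7 genes.
mdt-26 intron, chrII:5661743-5661893, plus strand: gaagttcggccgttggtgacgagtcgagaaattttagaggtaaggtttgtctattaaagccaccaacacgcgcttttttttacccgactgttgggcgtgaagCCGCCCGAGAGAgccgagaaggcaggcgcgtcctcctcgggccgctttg
Its capitals mark CCGCCC, 27 bp after the summit, and the GAGAGA that follows it at 33 bp. The GC content was 55.6% here and 60.9% at the mdt-26 promoter summit, against a median of 46.4% over all promoter summits.

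**Figure D2:**
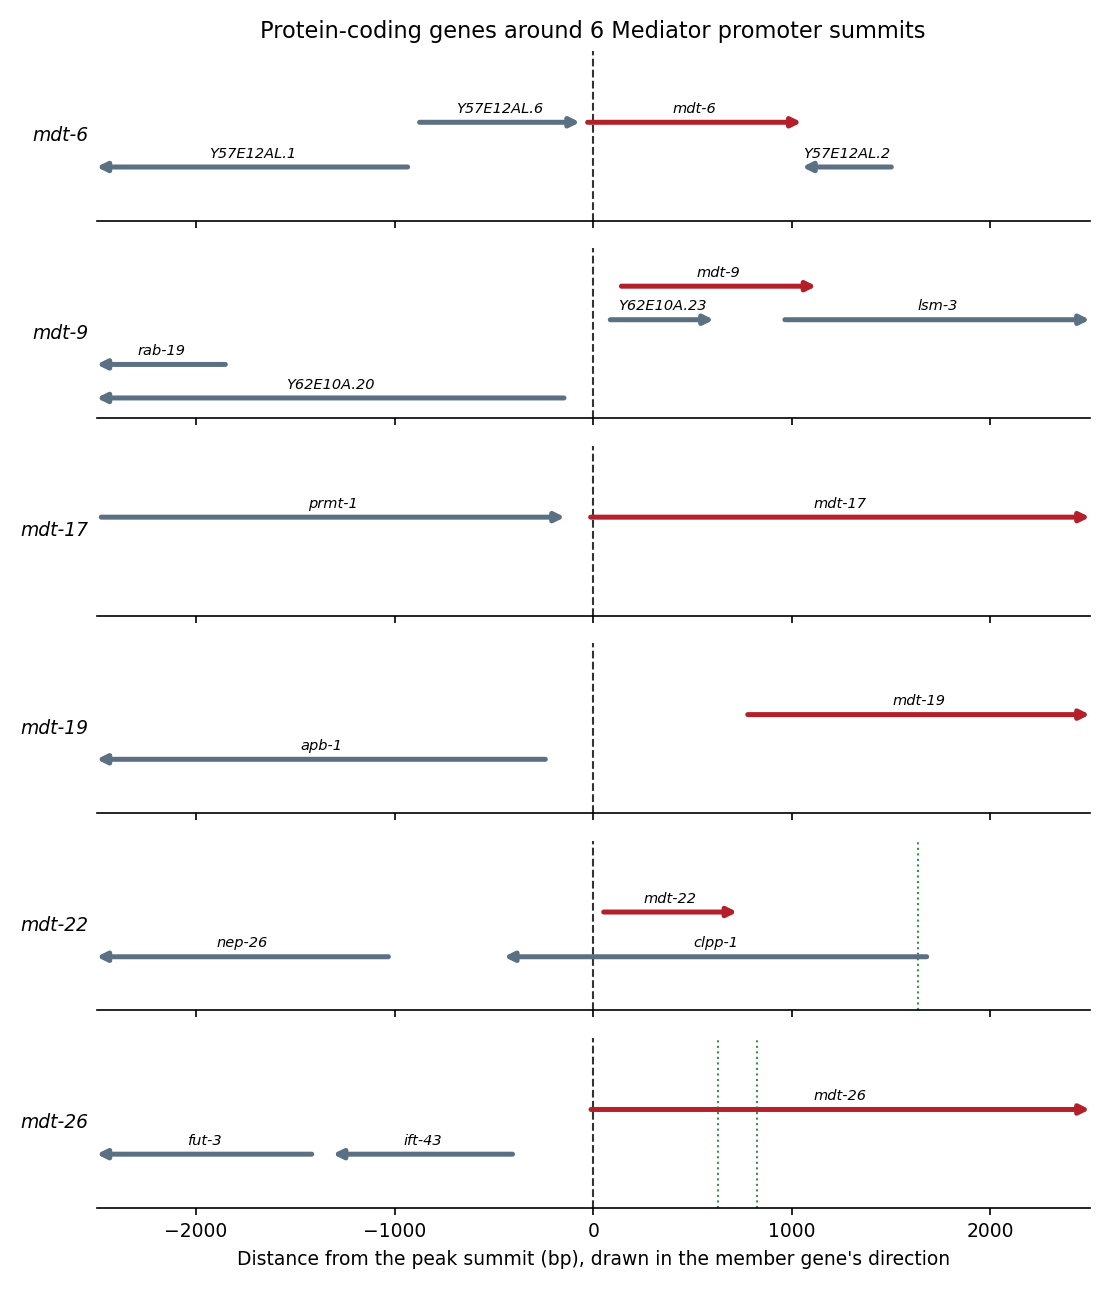
Protein-coding genes within 2500 bp of the promoter summits of 6 Mediator genes, drawn in the direction of the Mediator gene (red) with distance from the summit in bp on the horizontal axis. The dashed line is the promoter summit and green dotted lines are other thresholded summits, which stand at 626 bp and 825 bp in mdt-26 and at 1634 bp near mdt-22.

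The tail module gene mdt-15 (WBGene00007016, chromosome III, 5828557 to 5833751, minus strand, 4 transcript 5' ends) had no thresholded peak in its promoter windows. The series-level ranked list, which holds 85313 peaks before the threshold, gave 5 peaks there, all far from the threshold of 0.01. The strongest had a signal of 29.7 at 5834630, 879 bp upstream of the nearest 5' end, with a global IDR of 0.653 and rank 18903, and neither replicate had a summit within 100 bp of it. The peak nearest a 5' end, at 5833688, lay 20 bp downstream of a transcript start at 5833708 and 63 bp inside the gene. It had a signal of 23.7 and was matched in replicate 2 alone, at 20.01. The lowest global IDR of the 5 was 0.228, at 5833464, where the signal was 26.1 and replicate 1 alone had a peak, at 12.5. The other ranked peaks had signals of 18.7 and 4.58.

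No ranked peak in the mdt-15 promoter windows was therefore paired with a summit in both replicates. Ranked by its best promoter peak, mdt-15 stood at the 77.0th percentile of the 18551 genes with no promoter summit. Only 10922 of these genes had a ranked promoter peak, and all the others count as below mdt-15. No allowance was made for the number of 5' ends of a gene. The nearest thresholded summit, at 5827201 with a signal of 116.4, lay 6507 bp from the nearest mdt-15 transcript start and 1356 bp beyond the 3' end of the gene. The gene R12B2.6 ends 270 bp upstream of mdt-15 on the same strand and had no promoter summit.

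Distances to the gene start differed among the 6 summits. Summits lay within 60 bp of a 5' end at mdt-6, mdt-17, mdt-22 and mdt-26. That limit was not among the planned settings and lies just above the largest of these distances, 53 bp at mdt-22. Of all 1607 pairs of a gene and a promoter summit, 186 (11.6%) were that close, and the median distance was 271 bp. Nothing is read from the difference between these shares. The 5' end of the Mediator gene itself was the nearest one at the same 4 genes. At mdt-19 the nearer gene was apb-1, and at mdt-9 it was Y62E10A.23, the gene to which RefSeq gives the Mediator product. The windows of 4 of the 6 summits were shared with another gene, and mdt-17 and mdt-22 were alone. Counted once per summit, 21.9% of all promoter summits fell in the windows of 2 or more genes. The 6 summits were reached through their genes, which is a count by pairs of gene and summit. By pairs, 1017 of the 1607 had a summit in the window of that 1 gene only, and the others were shared.

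**Figure D3:**
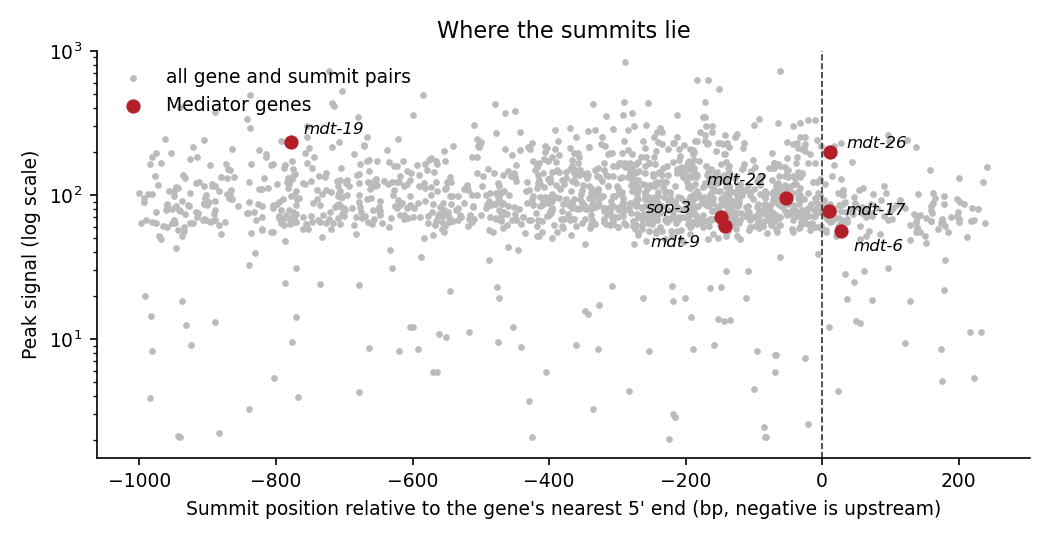
Position of each promoter summit relative to the nearest 5' end of its gene (horizontal axis, bp, negative is upstream) against the series-level signal (vertical axis, log scale), for all 1607 pairs of gene and summit in grey and the Mediator genes in red. The summits of mdt-6, mdt-17, mdt-22 and mdt-26 lie within 60 bp of the dashed line, and that of mdt-19 lies 778 bp upstream.

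Worm genes are often transcribed in operons, where downstream genes share the promoter of the first gene. No operon annotation was used here, so a gene that ends on the same strand within 1000 bp upstream was recorded instead, and such a gene need not be an operon partner. Of the 7 Mediator genes, 3 had one (mdt-6, mdt-15 and mdt-17), and none of these upstream genes had a promoter summit. The share was 28.9% over all protein-coding genes and 22.4% over genes with a promoter summit. Downstream on the same strand, C25H3.15 starts 85 bp after mdt-26 and Y71H2B.11 starts 758 bp after mdt-19, and neither had a promoter summit. Genes that overlap mdt-9 were not recorded this way. Y62E10A.23 and lsm-3 overlap mdt-9 on the same strand, and the mdt-9 summit lay in the promoter windows of both. A further summit, with a signal of 86.3, lay 12 bp downstream of an lsm-3 5' end.

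The 2 strongest of the 6 summits, mdt-19 and mdt-26, passed in both replicate lists. A single replicate list held mdt-22 (replicate 1) and mdt-9 (replicate 2), and neither list held mdt-6 or mdt-17. Replicate 1 was higher at 4 summits and replicate 2 at 2, while over the 1135 promoter summits paired in both replicates the median log2 difference, replicate 2 minus replicate 1, was 0.06 with an SD of 0.55.

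Of all promoter summits, 39.3% passed in both replicates, 27.6% in 1 and 33.1% in neither. Ranked by signal and split into 4 groups of 325 or 326, the weakest group, up to a signal of 69.1 and with mdt-6 and mdt-9 in it, had 70.2% that passed in neither replicate. In the second group, which holds mdt-17, the share was 55.8%. In the third, which holds mdt-22, 6.15% passed in neither. In the strongest group, from a signal of 126.9 and with mdt-19 and mdt-26 in it, 95.7% passed in both. The conservative list held 81.4% of all promoter summits and 4 of the 6 summits, without mdt-6 and mdt-9.

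How many of the 7 genes were called depended on the list and the rule of assignment. The conservative list called 4 of the 7, and 6.7% of all protein-coding genes. Replicate 2 alone called mdt-9, mdt-19 and mdt-26, and 4.52% of all genes, whereas replicate 1 alone called mdt-19, mdt-22 and mdt-26, and 3.78%. Peaks at or above the list's median signal of 85.98 left mdt-19, mdt-22 and mdt-26, and 4.15% of all genes. A window from 500 bp upstream to 100 bp downstream kept all but mdt-19 of the 6, and 5.12% of all genes. The same 6 were called with a window from 2000 bp upstream to 500 bp downstream, against 10% of all genes, and when any base of a peak in the window counted, against 7.84%. When each summit counted only for the nearest 5' end, 4 were called, without mdt-9 and mdt-19, against 5.78% of all genes. Only mdt-26 was called under every one of these settings, and mdt-15 under none.

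**Figure D4:**
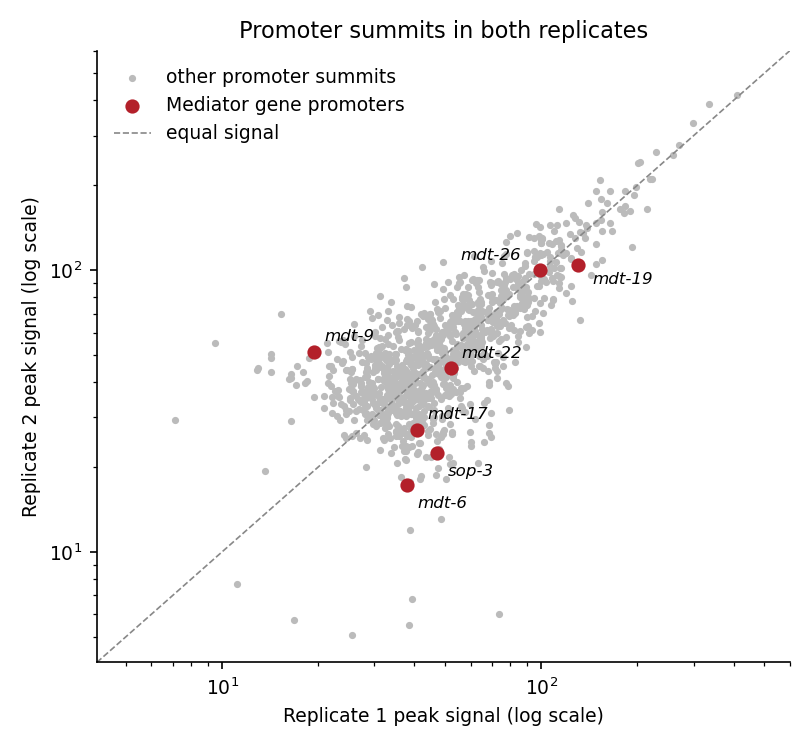
Signal of promoter summits in replicate 1 (horizontal axis) and replicate 2 (vertical axis), both on log scales, for the 1135 summits paired within 100 bp, with the Mediator genes in red and a dashed line at equal signal. The points of mdt-19, mdt-22 and mdt-26 lie near the line, whereas mdt-9 lies on the replicate 2 side and mdt-6 on the replicate 1 side.

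Across the whole list of 29 Mediator genes found in the annotation, 7 (24.1%) had a promoter summit, which are the 6 genes above and sop-3, against 7.12% of all protein-coding genes. The list counts mdt-9 by its name and was drawn up with those peaks known, so the share has no test. The gene sop-3, the MED1 homologue, lies on chromosome I and had a summit at 2776252, 148 bp upstream of its 5' end and in no other gene's window. Its signal was 70.0 with a global IDR of 0.00814. Replicate 1 gave 47.2 and replicate 2 gave 22.3, neither passed alone, and the conservative list did not hold the peak. As at mdt-6, replicate 1 was the higher one, here by 2.11-fold.

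The other Mediator genes had no promoter summit, and dpy-22, the MED12 homologue of the kinase module, came closest to having one. Its best ranked peak had a signal of 69.2, 567 bp from the 5' end, with a global IDR of 0.0114, just outside the threshold of 0.01. Replicate 1 gave 36.0 and replicate 2 gave 33.6 there, and the conservative list did hold this peak. The next were mdt-4 (middle module) at 47.7 with a global IDR of 0.0440, mdt-18 (head) at 41.4 with 0.0480, and cdk-8, the kinase of the kinase module, at 39.5 with 0.625. Of the 22 Mediator genes with no promoter summit, 14 (63.6%) had some ranked promoter peak, compared with 58.9% of all protein-coding genes with no promoter summit. Their best signals had a median of 28.5, against 25.98 for all such genes. No ranked promoter peak was found for 8 genes: mdt-1.2, mdt-8, mdt-10, sur-2, lin-25, mdt-29, mdt-31 and cic-1.

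**Figure D5:**
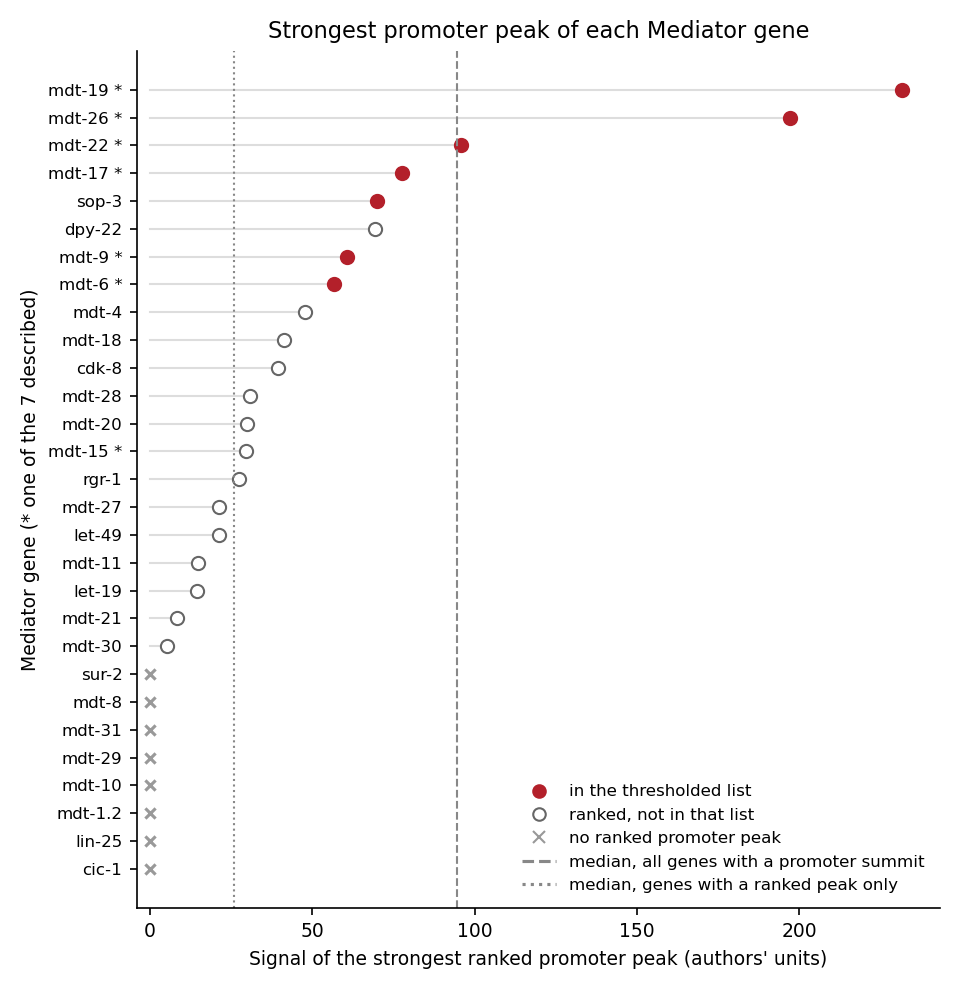
Signal of the strongest ranked promoter peak (horizontal axis, the authors' units) for the 29 Mediator genes, with red points in the thresholded list, open points ranked but not in it, and crosses at 0 where no promoter peak was ranked. The dashed line is the median of 94.5 over all genes with a promoter summit and the dotted line the median of 25.98 over genes with a ranked peak only; dpy-22 is the open point among the red ones.

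Short sequence motifs were searched on both strands within 75 bp of each of the 6 summits. The GAGA repeat (GAGAGA) was present at mdt-19 alone, and at 30.2% of all promoter summits and 10.9% of all 5' ends. An E2F/DREAM word (spelled TTCCCGC, or spelled TTCGCGC, or spelled TTGCCGC, or spelled TTGGCGC) was present at mdt-17 and mdt-22, in both as GCGCCAA, 48 bp and 56 bp before the summit, and at 12.1% of promoter summits and 4.04% of 5' ends. None of the 6 held the KLF/SP word (CCACCC or CCGCCC), present at 15.3% of promoter summits and 6.58% of 5' ends. None held the E-box CACGTG, present at 4.37% and 3.19%.

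A further pair of motifs was added after the member sequences had been read. TATAAA occurred at mdt-6, 68 bp before the summit, and at mdt-26, 56 bp before it, and at 6.75% of promoter summits and 19.3% of 5' ends. The run CGCGCG occurred at mdt-26 alone, 4 times in overlap between 39 bp and 28 bp before the summit, and at 5.68% of promoter summits and 0.996% of 5' ends. GC content within the same stretch was 35.1% at mdt-22, 36.4% at mdt-17, 43.0% at mdt-9, 43.7% at mdt-6 and 60.9% at mdt-26. Thus 4 of these 5 lay below the promoter summit median of 46.4%, and mdt-26 lay above 97.6% of promoter summits. The median over all 5' ends was 36.4%, the value of mdt-17, with mdt-22 below it and mdt-9, mdt-6 and mdt-26 above it. Each motif match is a match of letters and was not tested for binding.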

How the data were processed

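ChIP-seq peak lists were available for 2 biological replicates of 1 group, numbered by the labels. Coordinates are on ce11, per the labels, counted from 1. Aligner, peak caller and read depth are not given in the sources. The deposited lists give each peak's signal value, made by the authors with a normalization that is not stated. A -log10 value of the global IDR stands beside each peak in the ranked lists, as deposited, and every thresholded peak has 2 or more on that scale. In both series-level ranked lists together, 16 columns of single inputs were left out, and the ranked list behind the conservative list was not used.

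Summits were placed against 29314 5' ends of protein-coding transcripts (Ensembl release 115, WBcel235) and a summit counted for every gene whose window held it. A replicate summit was paired when within 100 bp. Sequences and product names came from RefSeq on the same assembly, and the sequence at mdt-19 is not reported here. On simulated data the assignment recovered 200 of 200 summits planted at known distances from 5' ends of the 19973 genes. Python 3.11.15, pandas 2.3.3, numpy 2.4.6 and matplotlib 3.10.9 were used.

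The members and all lists were chosen with earlier results of these data known, so counts have no test. Named genes are the 7 members, the other Mediator genes with a promoter summit or the strongest ranked peaks, genes sharing or nearer to a summit, same-strand upstream neighbours, and the 3 strongest of each further list. Further genes (the nearest misses, downstream neighbours and the weakest called general factor gene) were named after their values were seen. Alternatives changed the list, the threshold, the window or the assignment.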

Additional observations from a re-analysis of the deposited data

How the results depend on the processing

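The main counts were 6 of 7 genes, 7 of 29 Mediator genes, 4 of 32 polymerase II and general factor genes, 1 of 10 MDT-15 partner and target genes, and 1422 of all genes. Without replicate 1, and likewise without replicate 2, the counts were 3 of the 7 genes (mdt-19 and mdt-26 both times, with mdt-9 or mdt-22), 3 Mediator genes and 2 general factor genes, and over all genes they ranged from 755 to 903. Only peaks at or above the median signal gave 3 (mdt-19, mdt-22 and mdt-26), 3, 2 and 828. The conservative list gave 4 of the 7, and assigning each summit to the nearest 5' end also gave 4, then without mdt-9 and mdt-19. The window of 500 bp upstream to 100 bp downstream gave 5 of the 7, without mdt-19, and 2 general factor genes. With 2000 bp upstream to 500 bp downstream the partner count was 2 of 10 (20%), against 10% of all protein-coding genes. Within 50 bp of the summit the GAGA repeat was at 0 genes and the E2F/DREAM word at 1, and TATAAA at 0. In the same order, their shares over all promoter summits at that width were 22.3%, 9.06% and 3.68%. Within 150 bp the KLF/SP word was at 2. Its share over all promoter summits also rose, from 15.3% within 75 bp to 23.6% within 150 bp. In the settings that gave a gene a value, the signal of its strongest promoter peak was the same as reported. Those settings changed the window or took the conservative list, which held the same values for the same peaks. The agreement is therefore no check of the signal. No paired analysis was possible because there is 1 group. The cause of these changes was not tested, and the depth is not known.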

Other observations

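Among 32 genes of RNA polymerase II subunits and general transcription factors, 4 (12.5%) had a promoter summit, against 7.12% of all protein-coding genes. The strongest was at rpb-11, a polymerase subunit gene, with a signal of 130.6, followed by the TFIID subunit genes taf-4 at 127.1, taf-12 at 74.0 and taf-11.3 at 69.1. Of 10 genes that encode partners of MDT-15 or are known to depend on it, 1 (10%) had a promoter summit. The share over all protein-coding genes was 7.12%. That 1 gene was the nuclear hormone receptor gene nhr-49, with a signal of 124.9. The next of these 10 genes were the desaturase gene fat-2 at 51.4 and the receptor gene nhr-86 at 49.8, ranked peaks outside the thresholded list.

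Among the Mediator genes with no promoter summit, mdt-4 had a thresholded summit inside the gene. It lay in an intron on chromosome II at 4942567, 1382 bp from the 5' end, with a signal of 134.9 and replicate values of 64.01 and 61.1, both past their thresholds. The annotated small RNA gene ZK546.18 lay within 200 bp of it.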
